A study of Mus musculus with 20 samples.

Results

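The comparison set testis of mice on day 6 after birth against testis on day 3, with 2 arrays on each day, 4 of the 20 arrays of a time course that runs over 10 days. The 4 arrays were chosen by the day in their titles, and the comparison was chosen with earlier results of these data known. Messenger RNA of whole testis was hybridised to single-channel oligonucleotide arrays, which give 1 intensity for each probe set, a group of short probes for 1 transcript. The labels give the organ and the day only, with no strain, genotype or treatment, and all arrays share the same RNA extraction and biotin labelling. The labels do not say whether the 2 arrays of a day hold RNA of different animals, and p-values thus measure the spread between these samples alone, which may be technical. The number of arrays limits the precision of every value.

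The mouse is born with testis cords that hold Sertoli cells and arrested germ cells called prospermatogonia. In the first week these germ cells resume division, move to the wall of the cord and form 2 pools, undifferentiated spermatogonia, which hold the stem cells, and differentiating spermatogonia. The interval between days 3 and 6 is the one in which the first differentiating spermatogonia appear. Retinoic acid sends germ cells into differentiation, marked by the receptor Kit and by Stra8, a gene induced by that signal. Over the same days the fetal type of Leydig cell, which makes androgens between the cords, gives way to other cells, and Sertoli cells divide and mature.

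Over 16429 genes, each read from 1 probe set, 221 genes (1.35%) were higher on day 6 than on day 3, 64 (0.39%) were lower and 285 (1.73%) differed in either direction. Calls rested on an adjusted p under 0.05 (limma, Benjamini-Hochberg over all genes) and a difference of at least 1 on the log2 scale, which is 2-fold. The 64 lower genes became 40 without replicate 2 of day 3 and also without replicate 2 of day 6. Without the fold limit, 960 genes were higher and 611 lower at that adjusted p. At an unadjusted p under 0.05, 1928 genes (11.7%) were higher and 1524 (9.28%) lower, the background for each count of list members at that p. The median log2 difference over all genes was −0.00, and 90% of genes lay between −0.60 and 0.68. Differences over 4-fold were found for 12 of the higher and 4 of the lower genes. In each of the 285 called genes both day 6 arrays lay on 1 side of both day 3 arrays, which was also so for 55.9% of all genes tested. The log2 values of the day 6 arrays correlated across genes at r = 0.986 and those of the day 3 arrays at 0.985, against 0.975 between arrays of the 2 days. Intensity medians were 32.1 and 29.9 on the day 6 arrays and 30.2 and 29.4 on the day 3 arrays. Before taking logs a constant of 7.83 was added, so the size of a log2 difference depends on that constant where a level lies near or under it. That applied to 34 of the higher genes, with a day 3 mean below the constant, and to 10 of the lower genes, with a day 6 mean below it.

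**Figure D1:**
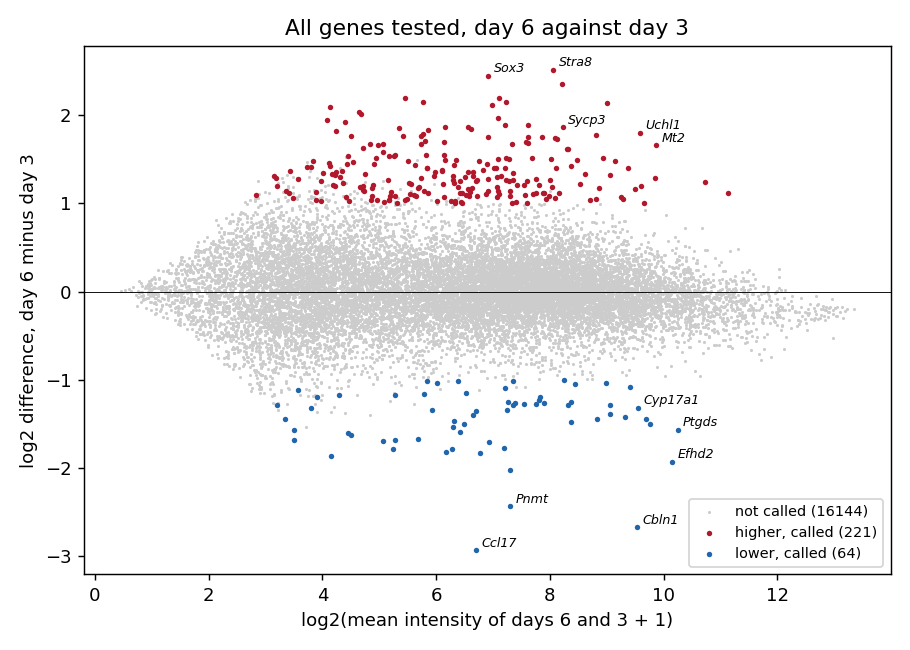
Log2 difference of day 6 minus day 3 (vertical axis) against log2 of the mean intensity of the 4 arrays plus 1 (horizontal axis) for the 16429 genes tested. Red points are the 221 genes called higher, blue points the 64 called lower and grey points all others. The higher calls outnumber the lower ones, while the 2 largest differences, of Ccl17 and Cbln1, are falls.

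Markers of the main testis cell types were checked first. Of 7 germ cell markers, 6 rose, and the median log2 difference of the 7 was 1.28. Their summed intensity was 5611 and 5417 on the day 6 arrays, against 2370 and 2163 on the day 3 arrays. Of 8 Sertoli cell markers 1, the hormone gene Amh, fell and none rose, with a median of −0.16. The sums were 11152 and 10742 on day 6 and 10418 and 11422 on day 3, so they overlapped. Of 5 Leydig cell markers 1, Cyp17a1, fell and all 5 differences were below 0, with a median of −0.60. Their sums were 2925 and 2978 on day 6 and 4924 and 4759 on day 3. Insl3 and Lhcgr, which also mark Leydig cells, had no probe set of a single gene and were not analysed here. All arrays are scaled to the same trimmed mean and hold the RNA of all cells of the organ. A lower value of fewer cells of a type and one of less RNA per cell therefore cannot be told apart, and the same holds for higher values.

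2 broad germ cell markers show the size of this shift. Ddx4, an RNA helicase of germ cells, had intensities of 830 and 816 on day 6, against 406 and 367 on day 3. The log2 difference was 1.08 ± 0.09 (SE, adjusted p = 2.76e-07). Dazl, an RNA-binding protein of germ cells, had 2480 and 2272 on day 6, against 1037 and 965 on day 3, a difference of 1.24 ± 0.12 (adjusted p = 1.33e-06). Both rose, and in neither did the arrays of the 2 days overlap. Of the 221 higher genes, 190 had a log2 difference above that of Ddx4 and 128 above that of Dazl. All 221 were called with a difference of at least 1. The count above Ddx4, which lies just over that limit, is thus largely set by the limit. Whether these genes differ from Ddx4 or Dazl was not tested.

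Genes of differentiating spermatogonia rose in the largest share of any list with more than 10 genes tested, 14 of 25, with none lower and a median of 1.16. The background was 1.35% of all genes higher. Among the 25, 1 was lower at an unadjusted p under 0.05. Stra8, the largest rise of all genes, had 456.4 and 455.5 on day 6, against 69.0 and 78.2 on day 3. The log2 difference was 2.51 ± 0.11 (adjusted p = 6.89e-11). The day 6 arrays differed by less than 1 intensity unit and both stood far above the day 3 arrays. The window of 250 bases before to 50 after the start of Stra8 is shown because this gene answers to retinoic acid, whose receptors bind repeats of AGGTCA. It lies on the plus strand at chr6:34920698-34920997, and in it and the windows below capitals mark the motif searched.
Stra8: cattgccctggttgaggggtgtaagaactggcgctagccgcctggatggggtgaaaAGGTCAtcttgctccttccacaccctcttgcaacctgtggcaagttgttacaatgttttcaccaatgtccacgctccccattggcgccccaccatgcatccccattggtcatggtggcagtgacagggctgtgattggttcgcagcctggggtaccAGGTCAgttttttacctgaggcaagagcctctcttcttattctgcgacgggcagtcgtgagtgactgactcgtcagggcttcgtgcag
AGGTCA was found 2 times on the shown strand, beginning 194 and 38 bases before the start. The 2 copies stand apart and not as adjacent repeats, and binding of a receptor was not tested. The sequence is from RefSeq, assembly GRCm38.p6, and the motif was searched on both strands.

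Sohlh1, a basic helix-loop-helix factor that spermatogonia need to differentiate, had 229.1 and 229.3 on day 6, against 43.7 and 44.2 on day 3. The difference was 2.19 ± 0.33 (adjusted p = 0.000200). Its partner Sohlh2 had 174 and 198 on day 6 and 97.0 and 82.6 on day 3. The difference of Sohlh2, 0.99 ± 0.16 (adjusted p = 0.000312), passed the adjusted p and lay just under the fold limit. Factors of this family bind E-boxes, of which CACGTG is a symmetric form. The windows of Sohlh1 and of Sycp3, a component of the synaptonemal complex that also rose, are shown for that motif. Sohlh1 is on the minus strand at chr2:25847199-25847498 and Sycp3 on the plus strand at chr10:88459337-88459636 (RefSeq, GRCm38.p6).
Sohlh1: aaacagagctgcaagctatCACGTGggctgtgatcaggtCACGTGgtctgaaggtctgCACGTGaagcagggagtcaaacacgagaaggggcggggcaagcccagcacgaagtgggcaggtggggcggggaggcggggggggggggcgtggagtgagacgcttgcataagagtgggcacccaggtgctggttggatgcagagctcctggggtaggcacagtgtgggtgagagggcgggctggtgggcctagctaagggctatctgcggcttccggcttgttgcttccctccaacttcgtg
Sycp3: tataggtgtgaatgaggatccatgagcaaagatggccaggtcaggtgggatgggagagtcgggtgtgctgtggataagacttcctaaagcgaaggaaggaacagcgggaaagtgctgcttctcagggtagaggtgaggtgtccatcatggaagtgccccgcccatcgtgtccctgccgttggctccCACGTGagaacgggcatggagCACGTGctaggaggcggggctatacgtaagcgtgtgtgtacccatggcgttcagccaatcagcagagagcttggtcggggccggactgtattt
CACGTG was found 3 times in the Sohlh1 window, beginning 231, 211 and 192 bases before the start, and 2 times in that of Sycp3, beginning 64 and 43 bases before it. Of the higher genes with a window, 34 of 188 (18.1%) held CACGTG, against 4 of 45 (8.89%) of the lower genes and 1398 of 13123 (10.7%) of all genes tested. AGGTCA was in 39 of 188 (20.7%) of the higher genes, 13 of 45 (28.9%) of the lower genes and 2118 of 13123 (16.1%) of all genes tested. Over all 27025 genes in the RefSeq table the shares were 8.09% for CACGTG and 18.1% for AGGTCA. These counts describe letters in a window and carry no test.

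Further genes of differentiating spermatogonia followed. Kit, the receptor for stem cell factor, had 173 and 150 on day 6, against 46.8 and 58.9 on day 3. Its difference of 1.48 ± 0.36 (adjusted p = 0.0108) was among the less secure of the large rises. The call ended without replicate 1 of day 3 (1.34), replicate 1 of day 6 (1.38) or replicate 2 of day 6 (1.58), with quantile normalization (1.34) and in a fit without a variance trend. A second probe set of Kit gave 1.42. Kitl, the ligand of Kit made by Sertoli cells, had 1997 and 2011 on day 6 and 2351 and 2161 on day 3, a difference of −0.17 ± 0.13 (adjusted p = 0.541).

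Crabp1, a protein that binds retinoic acid inside cells, had 257 and 240 on day 6, against 47.9 and 52.0 on day 3, and rose by 2.15 ± 0.22 (adjusted p = 1.80e-06). Dmrtb1, a factor that coordinates the passage of spermatogonia into meiosis, had 53.8 and 41.5 on day 6, against 14.4 and 8.996 on day 3. Its difference was 1.51 ± 0.21 (adjusted p = 7.52e-05), and it was 0.45 without a call when values were floored at the pooled median. Dnmt3b, a DNA methyltransferase that increases as spermatogonia differentiate, had 518 and 456 on day 6, against 175 and 177 on day 3. It rose by 1.42 ± 0.18 (adjusted p = 2.16e-05). In all these genes the day 6 arrays lay above both day 3 arrays. The other members called were Sycp3, Rec8, Nxf2, Tex14, Sycp1, Sall4, Rhox13 and Lmo1, with differences of 1.05 (Lmo1) to 1.86 (Sycp3). The call of Rhox13 (1.16) ended without replicate 2 of day 3 (0.98). That of Lmo1 (adjusted p = 0.0491) ended without any 1 of the 4 arrays, at 1.0 to 1.09. It also ended with quantile normalization (0.84), a constant at the 40th percentile (0.81) and the floor (0.84). In all, the call of Lmo1 ended under 13 of 19 alternatives.

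Genes of undifferentiated spermatogonia included the next largest rises, with 7 of 28 higher, none called lower and a median of 0.51. Sohlh1 and Sall4 are in both this list and that of differentiating spermatogonia. Sox3, a transcription factor of the X chromosome found in spermatogonia about to differentiate, had 214 and 202 on day 6, against 29.2 and 34.2 on day 3. It rose by 2.45 ± 0.20 (adjusted p = 1.07e-07), or by 1.62 where its probe sets were averaged. Lin28a, an RNA-binding protein that blocks let-7 processing, had 513 and 487 on day 6, against 95.8 and 87.4 on day 3, and rose by 2.35 ± 0.21 (adjusted p = 3.47e-07). Neurog3, a factor of progenitor spermatogonia, had 105 and 80.2 on day 6, against 15.9 and 13.4 on day 3. Its difference was 2.15 ± 0.44 (adjusted p = 0.00316), and 1.41 with the floor. These 3 genes thus stood about as high on both day 6 arrays and low on both day 3 arrays. Zbtb16, also called Plzf, a repressor that maintains the stem cell pool, had 421 and 382 on day 6, against 147 and 146 on day 3, and rose by 1.40 ± 0.18 (adjusted p = 3.94e-05). Sall4, its partner in spermatogonia, rose by 1.26 ± 0.22 and Upp1, a uridine phosphorylase, by 1.55 ± 0.32. The call of Upp1 ended without replicate 1 of day 3 (1.19). Sohlh1 is the 7th gene called in this list.

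Not all genes of this pool were higher. Gfra1, the receptor for GDNF on stem cells, had 77.7 and 92.2 on day 6 and 111 and 128 on day 3, a difference of −0.46 ± 0.28 (adjusted p = 0.414). Its ligand gene Gdnf, made by Sertoli and peritubular cells, had 178 and 158 on day 6 and 253 and 276 on day 3, a difference of −0.63 ± 0.26 (adjusted p = 0.157). In both genes the day 6 arrays lay below the day 3 arrays, and neither passed the test. Lhx1 had 8.52 and 15.1 on day 6 and 51.0 and 36.1 on day 3, a difference of −1.39 ± 0.45 (adjusted p = 0.0575). It was called lower under 5 alternatives, among them a common median (−1.47) and array weights. Lhx1 is known as a target of GDNF signalling and also marks urogenital ducts. Of the 28 genes, 11 were higher and 4 lower at an unadjusted p under 0.05.

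Genes of meiotic prophase were higher for 10 of 33, with none lower and a median of 0.71. Of the genes called, Stra8, Sycp1, Sycp3 and Rec8 are also counted in the list of differentiating spermatogonia, and Sycp3 among the germ cell markers. Sycp3 had 486 and 458 on day 6, against 134 and 115 on day 3, and rose by 1.86 ± 0.10 (adjusted p = 2.98e-10). Stag3, a cohesin subunit of meiotic chromosomes, had 323 and 288 on day 6, against 83.2 and 87.0 on day 3, and rose by 1.75 ± 0.09 (adjusted p = 3.03e-10). Tex11, an X-linked gene needed for meiotic crossovers, had 179 and 196 on day 6, against 50.2 and 49.9 on day 3, a rise of 1.75 ± 0.18 (adjusted p = 3.19e-06). In these 3 genes both day 6 arrays lay far above both day 3 arrays. Sycp1 and Syce1, of the central part of the synaptonemal complex, rose by 1.51 ± 0.13 and 1.40 ± 0.10, and Sycp2, of its lateral part, by 1.26 ± 0.09. Rec8, the meiotic kleisin subunit of cohesin, had 32.7 and 31.6 on day 6 and only 1.17 and 6.46 on day 3. The size of its difference, 1.82 ± 0.31 (adjusted p = 0.000603), depends on the added constant, and it was 0 with the floor.

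Both remaining calls besides Stra8 were weaker. Ugt8a, an enzyme of glycolipid synthesis, rose by 1.04 ± 0.17, and its call ended without replicate 2 of day 6 (0.94), with quantile normalization (0.83), with a constant at the 40th percentile (0.80) or with the floor (0.79). Ankrd31, which takes part in the placement of meiotic DNA breaks, had 28.9 and 25.9 on day 6 and 2.56 and 8.79 on day 3. Its call at 1.42 ± 0.44 (adjusted p = 0.0470) ended without any 1 of the 4 arrays, at 1.08 to 1.76, and was 0 with the floor and 0.85 with the constant at the 40th percentile. With values floored at the pooled median the list's median was 0.11. Of the 33 genes, 23 were higher and 1 was lower at an unadjusted p under 0.05.

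The piRNA pathway, in which germ cells make small RNAs that silence transposons, was higher for 9 of 20 genes, with a median of 0.97. Of the 20, 18 were higher at an adjusted p under 0.05 whatever the fold, against 960 of all 16429. None of the 20 was lower at an unadjusted p under 0.05 by limma. The background of calls was 1.35% of all genes higher. Tdrd1, a Tudor domain protein of germ granules, had 63.5 and 85.5 on day 6, against 15.01 and 6.12 on day 3, and rose by 2.19 ± 0.27 (adjusted p = 1.74e-05). With the floor its difference was 1.09. Mael, a piRNA factor of the same granules, had 1317 and 1300 on day 6, against 546 and 520 on day 3, and rose by 1.28 ± 0.07 (adjusted p = 3.03e-10). In proportion to their level, the arrays of each day were close for Mael and further apart for Tdrd1. Rnf17 and Mov10l1, which act in piRNA production, rose by 1.70 ± 0.12 and 1.69 ± 0.12, and Piwil2, the Argonaute protein called MILI, by 1.51 ± 0.09. Tdrd9, a helicase of the pathway, had 159 and 133 on day 6, against 61.2 and 44.2 on day 3, and rose by 1.35 ± 0.15 (adjusted p = 4.66e-06).

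Henmt1, which methylates piRNA ends, had 35.8 and 37.8 on day 6 and 11.6 and 1.10 on day 3. Its difference was 1.76 ± 0.32, and 0.09 without a call with the floor. Piwil1, the Argonaute protein called MIWI of later germ cells, had 39.9 and 22.8 on day 6 and 9.29 and 12.8 on day 3. Its call, at 1.03 ± 0.17, ended without replicate 1 of day 3 (0.89) or replicate 1 of day 6 (0.71). It also ended with quantile normalization (0.91), a constant at the 40th percentile (0.68) and the floor (0.10). Ddx4 is the 9th member called, and Ddx4, Mael and Tdrd1 are also counted among the germ cell markers.

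Of 15 prospermatogonia genes, Piwil2 and Sall4 rose and none fell, with a median of 0.38. Of the 15, 8 were higher and 1 was lower at an unadjusted p under 0.05. Dnmt3l, which assists DNA methyltransferases in the fetal germ line, had 17.7 and 11.4 on day 6 and 5.83 and 3.56 on day 3, a difference of 0.83 ± 0.36 (adjusted p = 0.181). Its level lay near the added constant on both days. Lefty2, an inhibitor of Nodal signalling, had 8.01 and 14.7 on day 6 and 1.61 and 0.81 on day 3, with a difference of 1.07 ± 0.45 (adjusted p = 0.168). It was called with a constant at the 5th percentile, with array weights and in a fit on days 0 to 14. Of 13 genes of DNA methylation, Dnmt3b rose and none fell, with a median of −0.01. Tet3, which oxidises methylcytosine, had 6.68 and 13.6 on day 6 and 25.6 and 23.5 on day 3, a difference of −0.87 ± 0.41 (adjusted p = 0.228).

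The 15 largest rises held 8 genes not described so far. Taf7l, a germ cell relative of a general transcription factor subunit, had 836 and 847 on day 6, against 197 and 174 on day 3, and rose by 2.14 ± 0.13 (adjusted p = 2.38e-09). Pramel13, of a gene family expressed in the germ line, had 211 and 205 on day 6, against 34.6 and 50.8 on day 3, and rose by 2.12 ± 0.37 (adjusted p = 0.000805). Pnma5 had 203 and 236 on day 6, against 59.5 and 42.4 on day 3, and rose by 1.96 ± 0.21 (adjusted p = 3.76e-06). Nlrp4c, of the NOD-like receptor family, had 236.1 and 236.4 on day 6, against 60.5 and 56.1 on day 3, and rose by 1.88 ± 0.20 (adjusted p = 3.31e-06). These 4 genes had all their values well above the added constant.

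The other 4 had day 3 means below that constant. Il10ra, a chain of the interleukin 10 receptor, had 36.9 and 26.3 on day 6, against 1.85 and 0.79 on day 3. Its difference of 2.10 ± 0.34 was 0.91 without a call where its probe sets were averaged. Pdha2, the germ cell form of a pyruvate dehydrogenase subunit, had 38.9 and 48.1 on day 6, against 3.94 and 5.34 on day 3, a difference of 2.04 ± 0.18. Cartpt, a neuropeptide precursor, had 28.9 and 31.0 on day 6, against 1.65 and 2.35 on day 3, a difference of 1.94 ± 0.38. Brsk2, a protein kinase, had 34.4 and 52.6 on day 6, against 0.79 and 10.45 on day 3. Its call at 2.01 ± 0.43 ended without replicate 1 of day 3 (1.47) or replicate 2 of day 6 (1.75), and where its probe sets were averaged (0.89). In each of the 4 the day 6 arrays stood above the day 3 arrays, and none was called with values floored at the pooled median, at 0 (Cartpt) to 0.32 (Pdha2). With a constant at the 40th percentile the differences were 1.12 (Cartpt) to 1.31 (Pdha2).

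**Figure D2:**
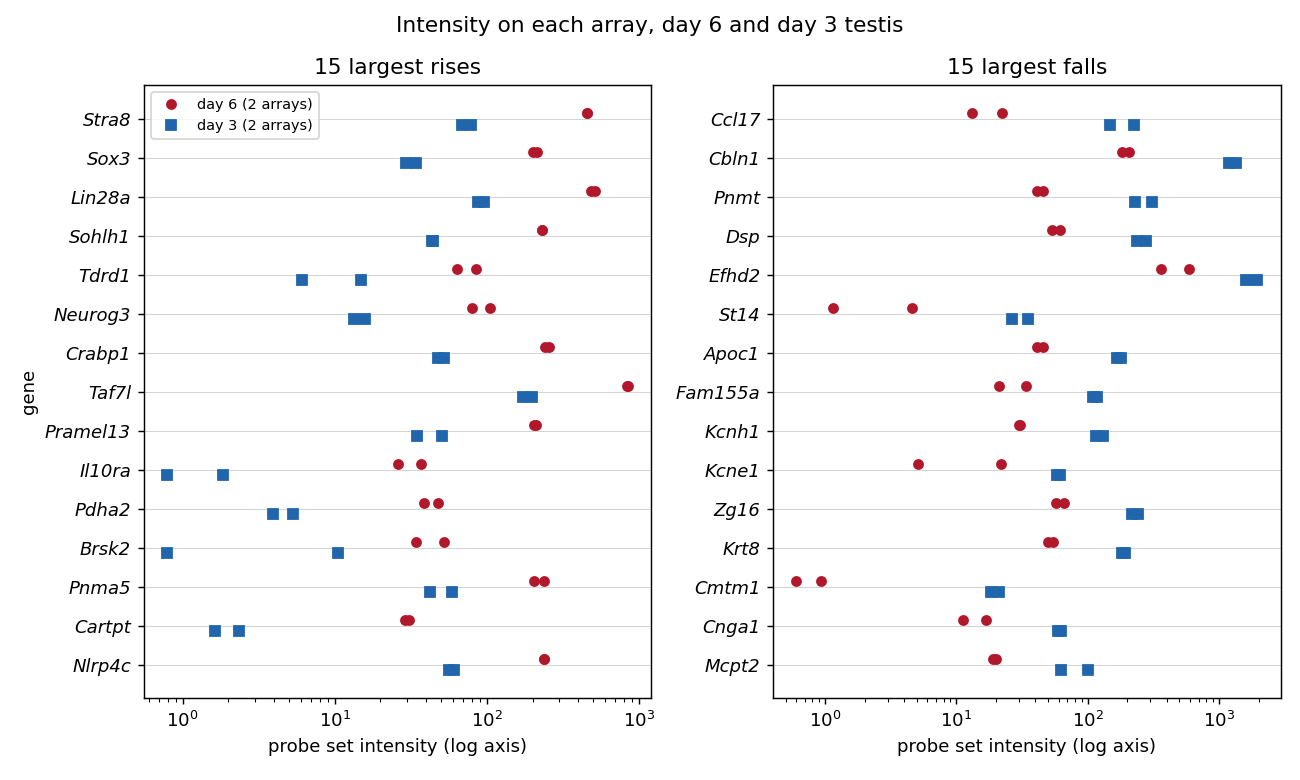
Probe set intensity on each array (horizontal log axis) for the 15 genes with the largest rise (left) and the 15 with the largest fall (right) among called genes, leaving out clone and predicted symbols. Red circles are the 2 arrays of day 6 and blue squares the 2 arrays of day 3, and in each gene they do not overlap.

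In the retinoid pathway, which makes, carries and breaks down retinoic acid, Crabp1 was the 1 of 22 genes called, with a median of −0.11. Aldh1a1, the retinaldehyde dehydrogenase of Sertoli cells, had 4722 and 4638 on day 6 and 5966 and 5772 on day 3, a difference of −0.33 ± 0.07 (adjusted p = 0.00606) that passed the adjusted p and not the fold. Aldh1a2, the enzyme of germ cells, had 148 and 126 on day 6 and 148 and 141 on day 3, a difference of −0.08 ± 0.15. Cyp26b1, which degrades retinoic acid, had 525 and 427 on day 6 and 525 and 514 on day 3, a difference of −0.13 ± 0.16. None of these 3 enzymes passed the fold limit. Adh1, an alcohol dehydrogenase, had 1069 and 1086 on day 6 and 2179 and 2003 on day 3, a difference of −0.95 ± 0.13 (adjusted p = 4.92e-05), and it was called with a common median (−1.01) and without replicate 2 of day 3 (−1.01). Rbp4, a carrier of retinol, had 128 and 109 on day 6 and 54.0 and 64.3 on day 3, a difference of 0.92 ± 0.14 (adjusted p = 0.000227). It was called without replicate 2 of day 3 or of day 6, at 1.03 each, and with the floor.

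Growth factors of the germ cell niche were lower for 2 of 25 genes and higher for none, with a median of −0.36. The background was 0.39% of all genes lower. At an unadjusted p under 0.05, none was higher and 12 were lower by limma. Inhba, which encodes the subunit of activin A, had 372 and 319 on day 6, against 978 and 898 on day 3, and fell by 1.42 on the log2 scale (SE 0.23, adjusted p = 0.000408). Averaged with a second probe set at the level of background it was not called (−0.68). Pdgfa, a growth factor for Leydig and peritubular cells, had 193 and 188 on day 6, against 388 and 549 on day 3. Its difference was −1.25 ± 0.27 (adjusted p = 0.00496), and the call ended without replicate 2 of day 3 (−1.0). Nrg1, a neuregulin, had 29.3 and 12.7 on day 6 and 46.4 and 60.8 on day 3, a difference of −1.14 ± 0.41 (adjusted p = 0.0894).

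Sertoli cell genes moved in both directions. Of 23 genes of the immature Sertoli cell, 5 fell and none rose, with a median of −0.37, and at an unadjusted p under 0.05 4 were higher and 12 lower. Amh, the hormone that removes the Müllerian duct, had 319 and 289 on day 6, against 629 and 894 on day 3. It fell by 1.28 (SE 0.28, adjusted p = 0.00500), and the call ended without replicate 2 of day 3 (−1.03) or replicate 2 of day 6 (−1.21). The day 3 arrays lay apart, and both stood above the day 6 arrays. Krt8 and Krt18 encode the keratin pair of simple epithelia, which immature Sertoli cells have. Krt8 had 49.7 and 54.8 on day 6, against 184 and 192 on day 3, a difference of −1.70 ± 0.24 (adjusted p = 0.000107). Krt18 had 45.9 and 39.3 on day 6, against 134 and 136 on day 3, a difference of −1.505 ± 0.35 (adjusted p = 0.00894), and its call ended without replicate 1 (−1.52) or 2 (−1.49) of day 3 or replicate 2 of day 6 (−1.41).

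Hsd17b1, an enzyme of steroid synthesis found in fetal Sertoli cells of the mouse, had 430 and 445 on day 6, against 1123 and 1279 on day 3. The difference was −1.44 ± 0.33 (adjusted p = 0.00749). The call ended without replicate 2 of day 3 (−1.34), replicate 1 of day 6 (−1.41) or replicate 2 of day 6 (−1.46). Ptgds, which makes prostaglandin D2, had 649 and 568 on day 6, against 1709 and 1925 on day 3, and fell by 1.57 (SE 0.18, adjusted p = 9.83e-06). With any 1 of the 4 arrays left out, this list had 2 to 4 lower calls.

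Of 28 genes of the maturing Sertoli cell and the blood-testis barrier, 3 rose and none fell, with a median of −0.13. Of the 28 genes, 5 were higher and 7 lower at an unadjusted p under 0.05. Cldn11, a claudin of the barrier, had 538 and 511 on day 6, against 190 and 172 on day 3, and rose by 1.496 ± 0.13 (adjusted p = 2.05e-07). Gata1, a factor that appears in Sertoli cells after birth and also in red blood cell precursors, had 100.5 and 124 on day 6, against 40.7 and 43.4 on day 3, and rose by 1.26 ± 0.18 (adjusted p = 0.000136). Eppin, a protease inhibitor of testis and epididymis, had 157 and 168 on day 6, against 75.2 and 67.7 on day 3, and rose by 1.11 ± 0.13 (adjusted p = 7.92e-06). Its call ended with a constant at the 40th percentile (0.99). Rhox5, an androgen-dependent gene of Sertoli cells, had 74.8 and 59.3 on day 6 and 78.8 and 85.9 on day 3, a difference of −0.27 ± 0.13 (adjusted p = 0.210). Among the Sertoli cell markers with no call, Dmrt1, which germ cells also express, had 2132 and 1919 on day 6 and 1125 and 1337 on day 3, a difference of 0.72 ± 0.11 (adjusted p = 0.000310). Gata4 had 553 and 615 on day 6 and 790 and 872 on day 3, a difference of −0.50 ± 0.17 (adjusted p = 0.0792).

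All 14 genes of steroid synthesis had differences below 0, with a median of −0.54, and 2 of them fell. At an adjusted p under 0.05 whatever the fold, 8 of the 14 were lower, against 611 of all 16429. The summed intensity of 9 adrenal genes was also lower, at 239.6 and 230.4 on day 6 and 465 and 557 on day 3. Most of that fall lay in 1 gene, Pnmt, with means of 43.3 on day 6 and 271 on day 3. Of the 9 differences, 6 were below 0 and 3 above it. Adrenal cells express Star, Cyp11a1 and Hsd3b1 too. The part of adrenal tissue in the steroid synthesis values was not tested. Cyp17a1, the enzyme that turns progestins into androgens, had 396 and 456 on day 6, against 1085 and 1053 on day 3, and fell by 1.31 (SE 0.12, adjusted p = 3.47e-07). Hsd17b1, described above, is the other member called. Star, which carries cholesterol into mitochondria, had 146 and 145 on day 6, against 323 and 276 on day 3. Its difference of −0.99 ± 0.19 (adjusted p = 0.00156) fell just short of the fold limit, so Star was not called. It was called with quantile normalization (−1.07), a common median (−1.05) or averaged probe sets (−1.11). A constant at the 5th percentile (−1.02), the floor (−1.03) or leaving out replicate 2 of day 3 (−1.10) also gave a call. Other probe sets of Star gave −0.95 and −1.37.

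Other enzymes of the pathway passed the adjusted p with smaller differences. Cyp11a1, which cleaves the cholesterol side chain, had 333 and 401 on day 6 and 491 and 571 on day 3 (−0.53 ± 0.15, adjusted p = 0.0356). Hsd3b1 had 1504 and 1515 on day 6 and 2389 and 2196 on day 3 (−0.60 ± 0.13, adjusted p = 0.00644). Hsd17b3, which makes testosterone, had 699 and 764 on day 6 and 1264 and 1096 on day 3 (−0.68 ± 0.13, adjusted p = 0.00182). In each of these genes both day 6 arrays lay below both day 3 arrays. Of 16 genes of the fetal and adult Leydig cell, 3 fell and none rose, with a median of −0.49. These were Ptgds, Inhba and Agtr2, an angiotensin receptor of fetal tissues on the X chromosome. Agtr2 had 437 and 431 on day 6, against 956 and 899 on day 3, a difference of −1.08 ± 0.33 (adjusted p = 0.0457). Its call ended without any 1 of the 4 arrays, at −1.04 to −1.13, and in all under 10 of 19 alternatives.

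Peritubular and matrix genes showed few calls. Of 17 genes of peritubular myoid and smooth muscle cells, 1 rose and none fell. The list's median was 0.01, and −0.04 with a common median. Cnn1, calponin of smooth muscle, had 130 and 86.8 on day 6, against 32.1 and 30.0 on day 3, and rose by 1.55 ± 0.28 (adjusted p = 0.000996). Acta2, smooth muscle actin, had 4653 and 4418 on day 6 and 4748 and 4249 on day 3, a difference of 0.01 ± 0.08. Myh11, smooth muscle myosin, had 502 and 670 on day 6 and 379 and 398 on day 3, a difference of 0.57 ± 0.16 (adjusted p = 0.0248). The day 6 and day 3 arrays overlapped for Acta2 and not for Cnn1 and Myh11.

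None of 34 genes of the extracellular matrix was called by limma, although 26 of the 34 differences lay below 0, with a median of −0.23. At an unadjusted p under 0.05, 2 were higher and 16 lower. Col1a1, a chain of type I collagen, had 2312 and 2235 on day 6 and 3090 and 3473 on day 3, a difference of −0.53 ± 0.16 (adjusted p = 0.0404). Col15a1 had 83.5 and 107 on day 6 and 185 and 194 on day 3 (−0.94 ± 0.36, adjusted p = 0.117), and was called with the floor (−1.0). Lox, which cross-links collagen, had 224 and 263 on day 6 and 441 and 429 on day 3 (−0.82 ± 0.32, adjusted p = 0.121). Postn, periostin, ran the other way, with 487 and 440 on day 6 and 293 and 264 on day 3 (0.72 ± 0.15, adjusted p = 0.00429).

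Imprinted genes of fetal growth were below 0 for 16 of 17, with a median of −0.47. At an adjusted p under 0.05, 10 of the 17 were lower, against 611 of all 16429. None of the 17 was lower by 2-fold. Igf2, a growth factor of fetal tissues, had 1924 and 1820 on day 6 and 2689 and 2753 on day 3 (−0.54 ± 0.15, adjusted p = 0.0307). Mest had 663 and 748 on day 6 and 1266 and 1480 on day 3 (−0.95 ± 0.18, adjusted p = 0.00158), and was called with a common median (−1.01) or without replicate 1 of day 3 (−1.06) or replicate 2 of day 6 (−1.04). The exception was Phlda2, with 49.6 and 42.5 on day 6 and 13.2 and 10.7 on day 3. Its call at 1.44 ± 0.44 (adjusted p = 0.0443) ended without any 1 of the 4 arrays, at 1.35 to 1.54, and its difference was 0.41 with the floor. In all, the call of Phlda2 ended under 13 of 18 alternatives.

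No cell cycle gene was called among 37, and the median was −0.06. At an unadjusted p under 0.05, 2 were higher and 10 lower by limma. Mki67, a marker of dividing cells, had 994 and 1115 on day 6 and 1532 and 1602 on day 3, a difference of −0.57 ± 0.12 (adjusted p = 0.00296). Ccnd2, the cyclin that acts in the entry of spermatogonia into differentiation and is also found in Sertoli cells, had 2464 and 2468 on day 6 and 3882 and 4199 on day 3 (−0.71 ± 0.10, adjusted p = 7.34e-05). Cdkn1c, an imprinted inhibitor of the cycle, had 339 and 364 on day 6 and 536 and 511 on day 3 (−0.57 ± 0.15, adjusted p = 0.0184). All 3 genes with the largest differences were thus lower, each by less than 2-fold. None of 17 genes of cholesterol synthesis was called (limma), with 2 higher and none lower at an unadjusted p under 0.05 and a median of −0.06. None of 24 hedgehog and Notch genes was called, with 1 higher and 5 lower at that p and 20 differences below 0. Among these Hhip, a target and inhibitor of hedgehog signalling, had 325 and 296 on day 6 and 552 and 553 on day 3 (−0.82 ± 0.21, adjusted p = 0.0148). In the TGF-beta superfamily, Amh and Inhba were the 2 of 38 called, both lower.

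Markers of other cells a testis sample could hold gave a few calls. Of 26 macrophage and leukocyte genes, 1 rose and 2 fell, with a median of 0.19 and sums of 1827 and 1870 on day 6 and 1805 and 1841 on day 3. Of the 26 differences, 18 lay above 0 and 8 below it. At an unadjusted p under 0.05, 6 were higher and 3 lower by limma. Ccl17, a chemokine, had the largest fall of all genes, with 22.4 and 13.2 on day 6, against 149 and 227 on day 3, a difference of −2.93 ± 0.34 (adjusted p = 9.83e-06). H2-Aa, a chain of the class II antigen-presenting complex, had 42.3 and 35.3 on day 6, against 92.0 and 83.8 on day 3. Its difference was −1.04 ± 0.24 (adjusted p = 0.00879), and the call ended without replicate 1 of day 3 (−0.98) or replicate 2 of day 6 (−0.93), with quantile normalization (−0.95), a constant at the 40th percentile (−0.86) or averaged probe sets (−0.70). Ccr2, a chemokine receptor of monocytes, had 32.1 and 37.3 on day 6 and 4.79 and 9.22 on day 3. Its call at 1.53 ± 0.38 (adjusted p = 0.0123) ended without replicate 1 of day 3 (1.32), replicate 1 of day 6 (1.62) or replicate 2 of day 6 (1.44). It also ended with averaged probe sets (0.32), a constant at the 40th percentile (0.98) and the floor (0.06), and its other probe sets gave 0.29, 0.00 and −0.53. Ccl17 thus fell while the summed level of the list overlapped between the days.

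Adrenal genes were measured as a check on neighbouring tissue. Of 9 tested, 1 rose and 2 fell, and their sums are given above with steroid synthesis. Pnmt, which makes adrenaline, had 41.3 and 45.3 on day 6, against 231 and 310 on day 3, and fell by 2.43 (SE 0.35, adjusted p = 0.000126). A second probe set of Pnmt gave −3.19, and another, near the added constant on both days, gave −0.11. Cyp11b1, the adrenal 11-beta-hydroxylase, had 8.24 and 4.72 on day 6, against 34.2 and 36.6 on day 3. Its call at −1.61 ± 0.38 (adjusted p = 0.00992) ended without replicate 1 (−1.65) or 2 (−1.56) of day 3 or replicate 2 of day 6 (−1.43), and with the floor its difference was −0.04. Chgb, a protein of hormone granules, was at 10.3 and 12.1 on day 6 and 1.22 and 0.91 on day 3, and its call at 1.10 ± 0.29 ended without any 1 of the 4 arrays, at 1.03 to 1.17. With a constant at the 40th percentile Chgb was at 0.53 and with the floor at 0, without a call. Whether adrenal tissue took part in the falls of Pnmt and Cyp11b1 was not tested.

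None of 12 genes of neutrophils and mast cells, 18 of endothelium, 12 of fat and skeletal muscle or 20 of the immediate early and stress response was called by limma. At an unadjusted p under 0.05 the neutrophil and mast cell genes had none higher or lower, the endothelial genes 1 higher and 3 lower, the fat and muscle genes 2 higher and none lower and the stress genes none higher and 5 lower. S100a8, of neutrophils, had 183 and 67.8 on day 6 and 193 and 312 on day 3, a difference of −1.08 ± 0.75 (adjusted p = 0.484), with the 2 arrays of day 6 far apart. Fabp4, of fat and endothelial cells, had 25.8 and 31.6 on day 6 and 73.9 and 64.5 on day 3 (−1.08 ± 0.65, adjusted p = 0.386). It was called in a fit on days 3 and 6 alone. Ramp2, of endothelium, had 196 and 211 on day 6 and 348 and 395 on day 3 (−0.84 ± 0.13, adjusted p = 0.000210). Nr4a1, an early response gene, had 422 and 429 on day 6 and 802 and 816 on day 3 (−0.91 ± 0.15, adjusted p = 0.000553). Gata1 and Eppin were the only calls in the red blood cell list (7 tested) and in the epididymis list (10 tested).

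**Figure D3:**
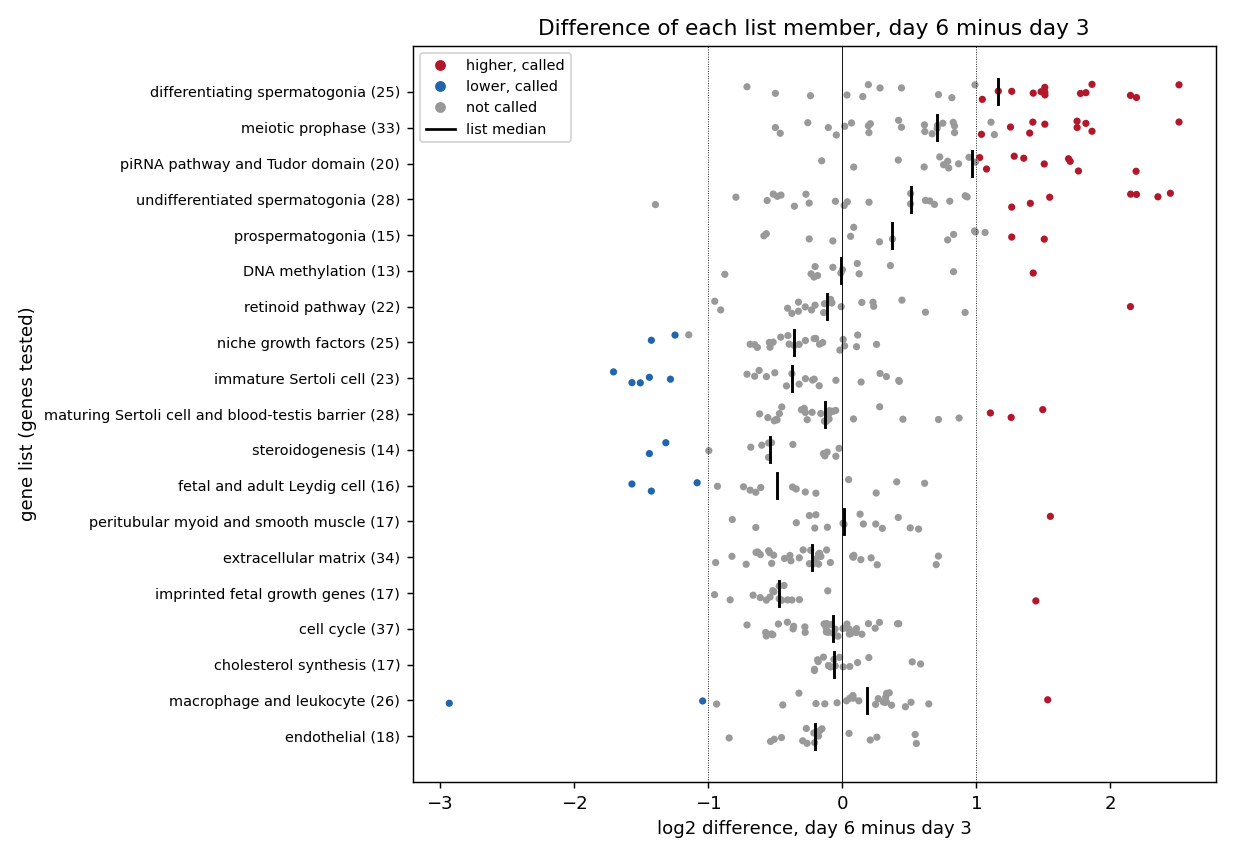
Log2 difference of day 6 minus day 3 (horizontal axis) for each gene tested in 19 gene lists (rows, number of genes tested in brackets). Red points were called higher, blue points lower and grey points neither, black bars are list medians and dotted lines mark a 2-fold difference. The medians of germ cell lists lie right of 0, with 14 of 25 differentiation genes called higher. Of 28 genes of undifferentiated spermatogonia, 10 lie left of 0. The steroid synthesis list lies wholly left of 0.

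The remaining large falls were of genes with varied functions. Cbln1, a secreted organiser of synapses, had 182 and 206 on day 6, against 1193 and 1359 on day 3, and fell by 2.67 (SE 0.38, adjusted p = 0.000109). Its other probe sets gave −3.17 and −2.52. Dsp, desmoplakin of cell junctions, had 53.6 and 61.5 on day 6, against 237 and 277 on day 3, a fall of 2.02 (SE 0.25, adjusted p = 2.13e-05). Efhd2, a calcium-binding protein, had 595 and 359 on day 6, against 1612 and 1962 on day 3, and fell by 1.93 (SE 0.17, adjusted p = 2.54e-07). A second probe set of Efhd2 gave −0.62, and the average of both −1.27. In all 3 genes the 2 days were wide apart, also where the day 6 arrays of Efhd2 differed from each other.

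Apoc1, an apolipoprotein, had 41.1 and 45.4 on day 6, against 180.5 and 167 on day 3 (−1.83 ± 0.35, adjusted p = 0.00191). Zg16, a lectin of secretory granules, had 56.9 and 66.0 on day 6, against 241 and 217 on day 3 (−1.77 ± 0.34, adjusted p = 0.00209). Kcnh1, a voltage-gated potassium channel, had 30.8 and 29.8 on day 6, against 116 and 131 on day 3 (−1.78 ± 0.25, adjusted p = 9.65e-05). The arrays of each day were close in these genes. Fam155a, a subunit of a sodium leak channel, fell by 1.82 (SE 0.41, adjusted p = 0.00625), and its call ended without replicate 1 of day 3 (−1.77) or replicate 1 of day 6 (−1.56). Cnga1, a cyclic nucleotide-gated channel, differed by −1.68 ± 0.34, and its call ended without replicate 2 of day 6 (−1.49) or with the floor (−0.82).

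A further 4 falls were of genes at low level on day 6. St14, a membrane protease, had 1.15 and 4.60 on day 6, against 26.5 and 35.0 on day 3, and its call at −1.86 ± 0.50 ended without any 1 of the 4 arrays, at −1.62 to −2.09. Its difference was −2.96 with a constant at the 5th percentile, −1.09 with one at the 40th and −0.01 with the floor. Cmtm1 had 0.60 and 0.93 on day 6, against 21.1 and 18.4 on day 3 (−1.68 ± 0.38). Its call ended without replicate 1 of day 3 (−1.61) or without replicate 1 (−1.65) or 2 (−1.71) of day 6. With the same settings Cmtm1 was at −3.18, −0.88 and 0, the last 2 without a call. Kcne1, a potassium channel subunit, had 21.97 and 5.09 on day 6, against 58.2 and 61.0 on day 3. Its call at −1.78 ± 0.48 ended without replicate 1 (−1.81) or 2 (−1.75) of day 3 or replicate 2 of day 6, where the difference was −1.18, and with the floor (−0.79). Mcpt2, a protease of mast cells, had 20.2 and 18.9 on day 6, against 99.7 and 62.2 on day 3, and its call at −1.66 ± 0.50 (adjusted p = 0.0382) ended without any 1 of the 4 arrays, at −1.36 to −1.97, and with the floor (−1.19).

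The days on either side were used to place the change in time. From day 0 to day 3, 27 genes were higher and 67 lower on the later day, and from day 6 to day 8, 32 and 9. Of the 221 genes higher on day 6 than on day 3, 10 had fallen between days 0 and 3 and 1 had risen, and between days 6 and 8, 8 rose further and none fell. Among the 221, day 3 held the lowest mean of the 10 days for 112 genes, and day 10 the highest for 64, more than any other day. Of the 64 lower genes, 27 had their highest mean on day 0 and 20 on day 3. Only 13 had their lowest mean on day 6, and 5 fell further by day 8, while 2, Efhd2 and Pdpn, rose again. The steps share arrays, so these counts are not independent. The genes were also called by their levels on days 3 and 6. That choice favours a low day 3 mean among the higher genes and a high one among the lower genes. The shares of all genes tested with such courses were not determined.

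The change between days 3 and 6 was set against the step before it in 1 contrast, day 6 minus day 3 less day 3 minus day 0. By limma 252 genes (1.53%) differed between the steps, 228 with a higher and 24 with a lower value. Of the 221 higher genes, 129 (58.4%) were among the 228, and of the 64 lower genes, 10 (15.6%) among the 24. The contrast holds the difference of days 6 and 3 by which these genes were called, so part of the overlap is built in. The day 3 arrays enter both steps with opposite sign, so an error in them widens this difference. Without replicate 2 of day 3 the count was 160. Tdrd9 changed by −1.86 between days 0 and 3 and by 1.35 between days 3 and 6, a difference between the steps of 3.22 ± 0.25 (adjusted p = 2.77e-07). Its mean was 210 on day 0, 52.7 on day 3 and 146 on day 6. Map7d2, an X-linked microtubule-associated gene, changed by −1.19 and then 1.84, a difference of 3.04 ± 0.46 (adjusted p = 0.000547). Prtg, protogenin, changed by −1.53 and then 1.54, and Phyhipl by −1.45 and then 1.58. With the floor the differences between days 6 and 3 were 0.79 for Prtg and 0.58 for Phyhipl, without a call, and that of Prtg also lost its call without replicate 2 of day 3 (1.23) or of day 6 (1.46). In these 4 genes day 3 held the lowest mean of the 10 days.

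Efhd2 and Pdpn showed the opposite course. Efhd2 changed by 1.12 and then −1.93, a difference between the steps of −3.04 ± 0.29 (adjusted p = 2.31e-06), and by 1.61 from day 6 to day 8. Pdpn, podoplanin, changed by 0.85, −1.39 and 1.29 over the 3 steps, with means of 426, 776, 291 and 730 on days 0, 3, 6 and 8. Dsp and Pnmt were level between days 0 and 3, at −0.02 and −0.03, before they fell.

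The step from day 6 to day 8 differed from the one from day 3 to day 6 in 58 genes (0.353%) by the same test, 13 with a higher and 45 with a lower value. Of the 221 higher genes, 39 (17.6%) were among the 45, and of the 64 lower genes, 5 (7.81%) among the 13. This overlap too is partly built in, since the contrast holds the difference by which the genes were called. Without replicate 1 of day 6 the count was 29 and without replicate 2 of day 6 it was 26. Sox3 changed by 2.45 and then −0.01, a difference of −2.46 ± 0.34 (adjusted p = 0.000799). Lin28a changed by 2.35 and then −0.62, a difference of −2.98 ± 0.37 (adjusted p = 0.000189). Zbtb16, with no call in this contrast, had means of 402 on day 6 and 406 on day 8. None of these 3 genes was called between days 6 and 8. Stra8 changed by 2.51 and then 0.62, a difference of −1.89 ± 0.19 (adjusted p = 3.23e-05), and its mean was 706 on day 8 and 1129 on day 10. Crabp1 rose further by 1.01 and Dmrtb1 by 1.602 between days 6 and 8, and both of those rises passed the test. Cyp17a1 changed by −1.31 and then 0.88, a difference of 2.20 ± 0.20 (adjusted p = 9.42e-06).

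**Figure D4:**
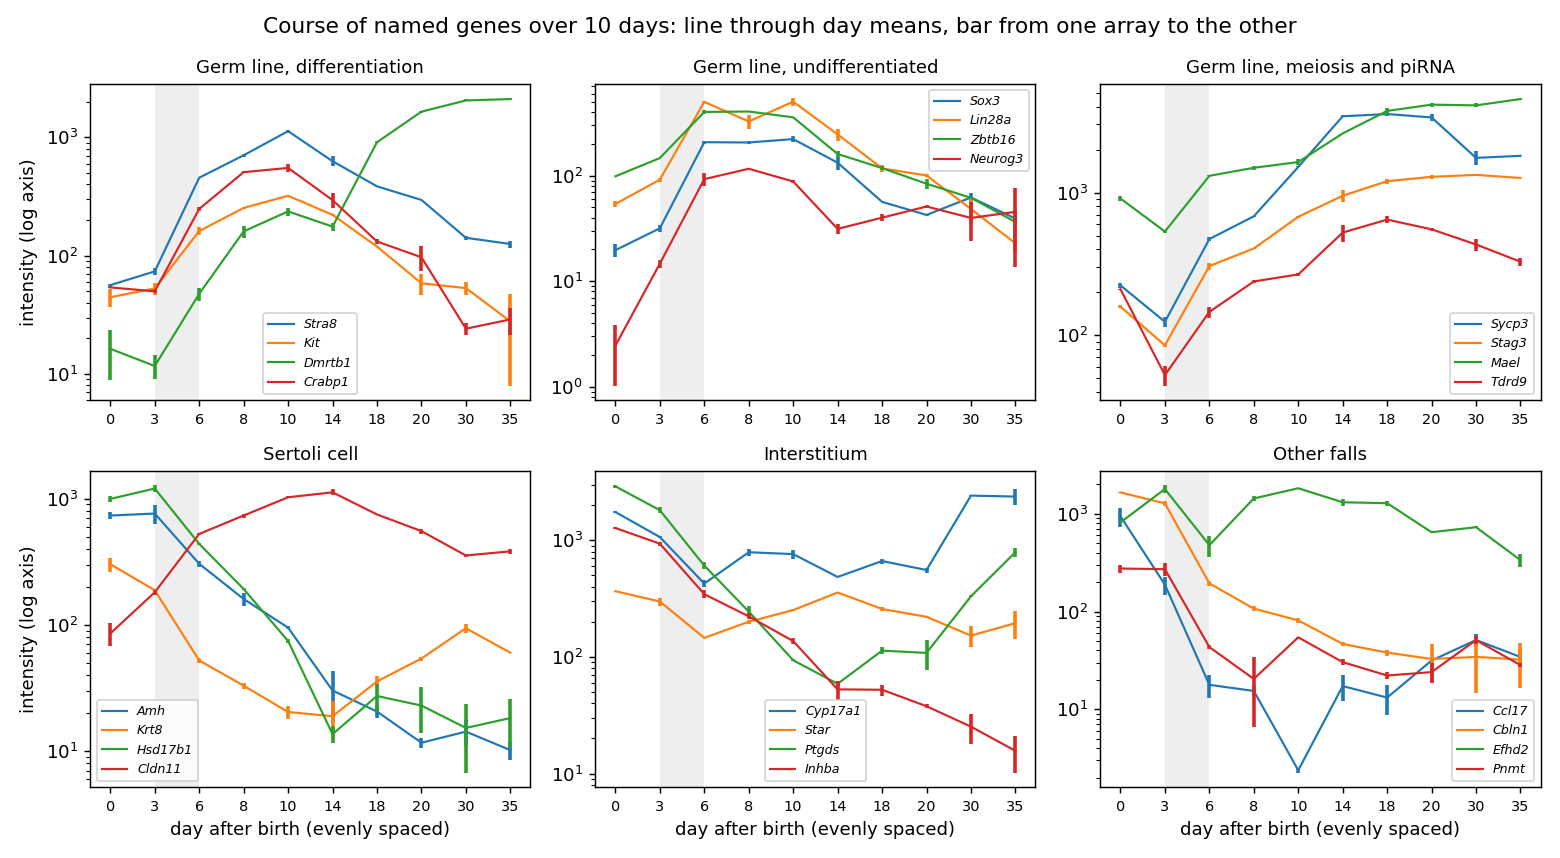
Mean intensity (vertical log axis) of 24 named genes on the 10 days after birth (horizontal axis, days evenly spaced), with bars from one array of a day to the other and the interval from day 3 to day 6 shaded. Sox3 and Zbtb16 are level between days 6 and 8, Lin28a is lower on day 8, Stra8 peaks on day 10, Sycp3 and Tdrd9 have a low point on day 3, and Efhd2 is lower on day 6 than on days 3 and 8.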

How the data were processed

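Whole testis RNA was measured on 20 arrays, 2 on each of 10 days, grouped by the day in their titles. Trizol extraction and biotin labelling are stated per the labels' protocols. The authors deposited 1 linear intensity per probe set and array, made with software not given in the sources used here. All arrays have the same 2% trimmed mean, and no further normalization was applied. The array titled day 18 replicate 2 has a source label of day 0. It was kept under its title, and left out as an alternative.

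Of 45101 probe sets, 64 controls were left out, and 34945 with 1 gene symbol gave 18193 genes, each read from the probe set whose mean log2 intensity was highest. Those over the 40th percentile of their array on at least 2 arrays, 16429, were tested. Symbols of 34741 probe sets were matched by Entrez identifier to RefSeq (GRCm38.p6). Values were taken as log2(intensity + 7.83), the constant being the pooled 20th percentile. limma 3.58.1 in R 4.3.3 (moderated two-sided tests, lmFit then eBayes, variance trend on) fitted day as a factor to all 20 arrays, with 10 residual degrees of freedom, so a standard error rests on the spread over all days. Calls needed a Benjamini-Hochberg adjusted p under 0.05 and a 2-fold difference. The fit was tested on simulated data.

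The comparison, the 30 gene lists and the motifs were chosen with earlier results of these data known. Named genes are the 15 largest rises and falls with arrays that do not overlap (without clone and predicted symbols), all called and the 3 most changed members of each list, 41 benchmark genes and the 8 largest changes of step each way. Others were chosen after their values were seen. Alternatives covered normalization, constant, filter, probe sets, trend, weights, arrays in the fit, threshold, each array left out, the replicate block, and, added after seeing the data, a floor at the pooled median and the steps with each array left out. Deviations of same-numbered arrays of days 6 and 3 correlated at 0.0072, so no shared deviation by replicate number was seen. With 2 arrays a day this cannot exclude a pairing. Python 3.11.15 and matplotlib 3.10.9 made the figures.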

Additional observations from a re-analysis of the deposited data

Results flagged for a closer look

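Genes whose change between days 3 and 6 differed from that of a neighbouring step, by a test of the difference itself, are given here, and all values are log2 differences between steps. Against the step from day 0 to day 3, 252 genes differed. The largest positive differences among called genes were those of Arg2 (3.34), Cartpt (3.33), Cyp2c55 (3.24), Tdrd9 (3.22), Brsk2 (3.10), Prtg (3.08), Map7d2 (3.04) and Phyhipl (3.03). Of these, Arg2, Cartpt, Cyp2c55 and Brsk2 had day 3 means below the constant of 7.83, and so the size of their difference depends on it. The calls of Arg2 and Cyp2c55 for day 6 against day 3 ended under 9 and 6 of 18 alternatives. For day 6 minus day 3, Arg2 was at 1.36, its second probe set at 0.16 and the average of both at 0.76. The largest negative differences were those of Efhd2 (−3.04), Pnmt (−2.40), Pdpn (−2.24), Zg16 (−2.23), Spata21 (−2.17), Kcnh1 (−2.05), Dsp (−1.99) and Rgcc (−1.82).

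The step from day 6 to day 8, less that from day 3 to day 6, differed for 58 genes. It was positive for Efhd2 (3.54), Ccl17 (2.81), Pdpn (2.68), Cyp17a1 (2.20) and Hddc3 (2.05), which were lower on day 6 than on day 3. It was negative for Lin28a (−2.98), Pdha2 (−2.70), Sox3 (−2.46), Mapk10 (−2.08), Tdrd1 (−2.01), Stra8 (−1.89), Ripk4 (−1.84) and Nlrp4c (−1.73), which were higher on day 6 than on day 3.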

How the results depend on the processing

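The counts of genes higher on day 6 than day 3 and of genes lower on day 6 than day 3 were 221 and 64 as reported. A constant at the 40th percentile gave 140 and 47, array weights 291 and 114, a fit on days 3 and 6 alone 262 and 103, and an adjusted p under 0.01 175 and 42. Leaving out 1 array gave 178 to 211 higher and 40 to 55 lower genes, the 40 both without replicate 2 of day 3 and without replicate 2 of day 6. Quantile normalization gave 162 and 54, and a common median 205 and 85, of which 70.7% were higher against 77.5% in the reported calls. Replicate number as a block gave 221 and 62, and 245 and 56 genes for the changes of step. Same-numbered arrays of days 6 and 3 showed no shared deviation. Leaving out 1 array, an alternative chosen after seeing the data, gave 160 to 226 genes for the difference from the step before and 26 to 58 for that of the step after. With the floor at the pooled median, also chosen after seeing the data, the counts were 172 and 63. No named gene with a call changed sign under any of the 19 alternatives, although some were exactly 0 with the floor. Of the 87 named genes with a call, 49 kept it under all 19 alternatives. Genes near the added constant of 7.83 are limited by it most.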

Other observations

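Genes outside the lists also differed, and the following were chosen after their values were seen. Uchl1, a deubiquitinase of spermatogonia, had 1188 and 1211 on day 6, against 342 and 337 on day 3, and rose by 1.80 ± 0.09 (SE, limma, adjusted p = 1.83e-10). The metallothionein genes Mt2 and Mt1, which bind metal ions, rose together. Mt2 had 1382 and 1464 on day 6, against 389 and 510 on day 3 (1.66 ± 0.09, adjusted p = 3.03e-10). Mt1 had 1052 and 949 on day 6, against 432 and 453 on day 3 (1.16 ± 0.10, adjusted p = 2.66e-07). Tex19.1, a germ line gene that acts on retrotransposons, had 966 and 961 on day 6, against 357 and 364 on day 3 (1.40 ± 0.11, adjusted p = 6.68e-08). Dicer1, which cuts microRNA precursors, had 323.2 and 322.5 on day 6, against 154 and 136 on day 3 (1.12 ± 0.16, adjusted p = 9.58e-05). In each of these genes the arrays of the 2 days did not overlap. Among the falls Tesc, a calcium-binding protein known as tescalcin, had 453 and 440 on day 6, against 1232 and 1328 on day 3 (−1.503 ± 0.16, adjusted p = 3.20e-06).

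Genes of the X chromosome were a larger share of the rises than of all genes, as a plain count. Of 559 X-linked genes tested, 28 (5.01%) were higher and 2 lower, against 1.35% higher among all genes, while the median of all X-linked genes was −0.04. The rises include Sox3, Taf7l, Pnma5, Nxf2, Tex11, Map7d2, Gata1 and Rhox13, and also Usp26 (1.77), Taf9b (1.72), Tsc22d3 (1.62), Tktl1 (1.61) and Scml2 (1.33). This share was not tested.

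Of the 285 called genes, 122 have other probe sets, 195 in all. Of these, 166 had a difference of the same sign and 52 the same sign and at least 2-fold, while 29 had the opposite sign.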
